A study of Mus musculus with 31 samples.

Results

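Yolk sacs of compound heterozygous Etv2 enhΔ/Δ embryos were set against yolk sacs of Etv2 +/Δ embryos, over all 18477 genes of the table. The comparison takes 11 of the 31 RNA-seq libraries of the series, 5 of Etv2 enhΔ/Δ and 6 of Etv2 +/Δ, chosen by the genotype in their labels. Both groups carry 1 Δ allele, a germline deletion of exons 4 to 5 of Etv2, so they differ only in the other allele: enhΔ, which lacks a region upstream of the gene, in Etv2 enhΔ/Δ, and the wild-type allele in Etv2 +/Δ. The question was what loss of the enhancer does to the yolk sac when the partner allele gives no functional Etv2. Each library came from the yolk sac of a single embryo at embryonic day 8.5, matched for somite number, from matings between carriers of the alleles. The enhΔ allele was made with CRISPR-Cas9 in FVB zygotes, with lines from independent founders, and the mice had a mixed background. The other libraries were Etv2 enhΔ/enhΔ (5), +/enhΔ (4), Δ/Δ (5) and +/+ (6), and they entered the same fit. The p values measure the spread between single embryos.

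Etv2 encodes an Ets family transcription factor that is needed for the first blood and endothelial cells of the mouse embryo. It is expressed for a short time in mesodermal progenitors and acts upstream of Tal1, Gata2, Lmo2, Fli1 and Kdr. The yolk sac consists of visceral endoderm and extraembryonic mesoderm. Its blood islands give rise to primitive red cells and to the endothelium around them, and at this stage the red cell programme, led by Gata1, Tal1 and Klf1, is switching on heme synthesis, globins and the red cell membrane.

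The stretch of DNA that the enhΔ allele loses lies upstream of Etv2, and its genotyping primers are shown because they place the deletion. Etv2 lies on the minus strand of chromosome 7 (chr7:31418635-31421308, mm9). The outer primers match once each at chr7:31423209-31423228 and chr7:31425346-31425365, which bound a wild-type product of 2157 bases that lies 1901 to 4057 bases upstream of the start of the gene. A further primer is listed only for the wild-type product, at chr7:31424730-31424748, and the 240 bases that start with it are given on the plus strand, with that primer in capitals. The interval that the study gives for the deletion lies between the outer primers and contains this stretch.
LBL-F: gcctcttctcccaccacata
LBL-R: ttggcactagaatgcacagc
Etv2 upstream stretch, chr7:31424730-31424969 (mm9, plus strand): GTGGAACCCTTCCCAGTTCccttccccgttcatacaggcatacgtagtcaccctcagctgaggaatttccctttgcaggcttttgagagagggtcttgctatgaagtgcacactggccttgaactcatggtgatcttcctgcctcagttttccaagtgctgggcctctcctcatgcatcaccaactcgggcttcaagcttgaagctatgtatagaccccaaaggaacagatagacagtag

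Etv2 itself does not check the genotypes here. In Etv2 enhΔ/Δ it had 0.565, 2.14, 0.220, 1.42 and 2.98 CPM (the reads of a gene scaled to a common library size), from 92 reads in all. In Etv2 +/Δ it ran over 0.729, 1.26 and 3.59 CPM (lowest, median, highest), from 120 reads. The 2 groups overlapped, and the difference was −0.11 ± 0.27 on the log2(CPM + 1) scale (SE; 95% interval −0.66 to 0.44; adjusted p = 0.929). The 3 genotypes without a Δ allele averaged at most 0.170 CPM, and a count per gene does not tell which allele gave a read.

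The libraries held 7437045 to 16924853 reads in genes in Etv2 enhΔ/Δ and 4040098 to 21815594 in Etv2 +/Δ. Yolk sac endoderm was abundant in every library: Apob alone took 22441 to 29555 CPM in Etv2 enhΔ/Δ and 19295 to 29192 CPM in Etv2 +/Δ. Markers of paraxial mesoderm summed to 0.195–3.73 CPM in Etv2 enhΔ/Δ and 0.186–2.31 CPM in Etv2 +/Δ, and markers of the maternal decidua to 0–0.644 CPM against 0.0912–3.18 CPM. Replicates 2 and 3 of Etv2 +/Δ stood apart. They were the shallowest of the 11, are labelled male although Xist reached 504 to 645 CPM and the Y-linked genes no more than 0.258 CPM, and had the 2 highest shares of mitochondrial messenger RNA (8.46% and 5.11%). Replicates 1 and 2 of Etv2 Δ/Δ, which enter the fit, are also labelled male, with 434 and 443 CPM of Xist and 0 over the Y-linked genes. The labelled males of Etv2 enhΔ/Δ, replicates 2 and 4, had 233 to 280 CPM over Y-linked genes. By these reads all 6 Etv2 +/Δ libraries had a female pattern (Xist 504 to 645 CPM, Y-linked genes at most 0.501 CPM). Sex by these reads was thus uneven between the 2 groups, and a term of labelled sex need not correct it. Mitochondrial messenger RNAs took 3.00 ± 0.31% of the reads in Etv2 enhΔ/Δ, against 4.77 ± 1.94% in Etv2 +/Δ (SD, n = 5 and 6). Every Etv2 enhΔ/Δ share (2.48 to 3.26%) lay below every Etv2 +/Δ share (3.27 to 8.46%). The two-sided exact permutation p of 0.00433 is the smallest that this test can give here. The part of mitochondrial messenger RNAs in the results below was not tested beyond the fit with this share as a term.

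Loss of the enhancer opposite Δ was accompanied by a fall of red cell genes and by a rise of matrix genes. Of the endothelial genes listed, Tal1 alone was called in the fit of all libraries. In the fit of log2(CPM + 1) with genotype and labelled sex over all 31 libraries (limma), 161 genes were lower in Etv2 enhΔ/Δ (0.871% of those tested) and 69 were higher (0.373%), at a Benjamini-Hochberg adjusted p under 0.05 over all genes. At an unadjusted p under 0.05 the counts were 1155 (6.25%) and 1182 (6.4%). The lists of red cell transcription factors, heme synthesis, iron transport, globins, membrane proteins and enzymes together held 85 measured genes, of which 38 were lower (44.7%) and 0 higher, with a median of −0.84, against a median of 0.01 over all genes. The lists were written with earlier results of these data known, so this share is not independent of them. Of the genes called lower, 122 lay outside every list. The yolk sac is a mixture of cells, so fewer red cells and less of these RNAs per red cell cannot be told apart. The counts leaned on single libraries. Over the fits that left out 1 of the 11, they were 79 to 178 lower and 22 to 106 higher. Without Etv2 +/Δ replicates 2 and 3 they were 43 (16 in the red cell lists) and 5, while the median of the red cell lists was −0.76. Leaving out Etv2 enhΔ/Δ replicates 2 and 4, the 2 with Y-linked reads, gave 43 (16 in the red cell lists) and 7, with a median of −0.66. That setting was chosen after the data were seen and keeps 3 Etv2 enhΔ/Δ libraries.

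**Figure D1:**
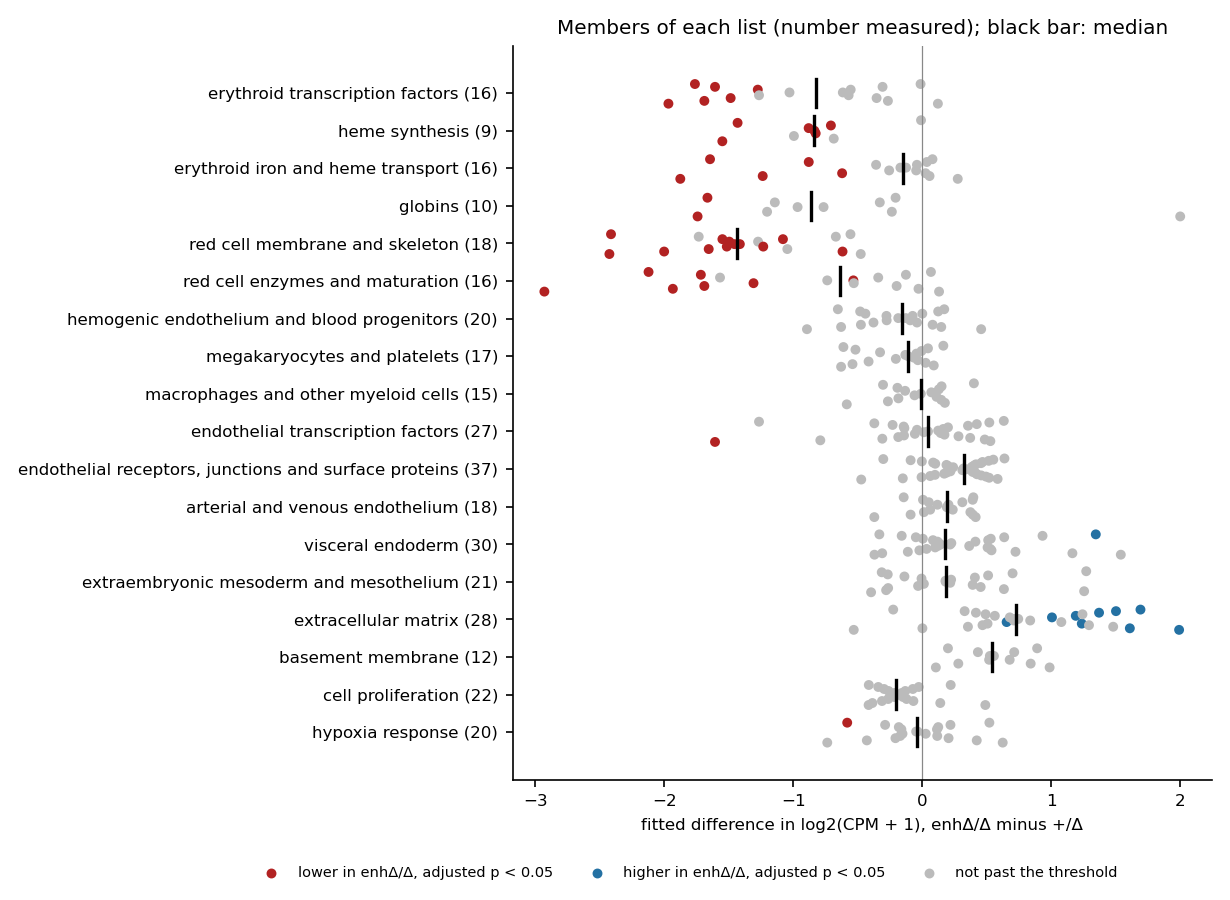
Fitted difference, Etv2 enhΔ/Δ minus Etv2 +/Δ, of every measured member of 18 gene lists on the log2(CPM + 1) scale. Each point is a gene, in red where it was called lower, in blue where called higher and in grey where not called, and the black bar is the median of the list. The medians of the red cell lists lie left of 0 and those of the matrix and basement membrane lists right of it. They are −1.43 for red cell membrane genes and 0.73 for extracellular matrix genes.

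Among 16 transcription factors of the red cell programme, 6 were lower in Etv2 enhΔ/Δ and 0 higher, and the median was −0.82. Tal1, a basic helix-loop-helix factor without which no blood forms in the mouse, had 17.1, 30.9, 43.4, 14.4 and 24.5 CPM in Etv2 enhΔ/Δ, against 57.1, 71.5 and 111 CPM (lowest, median, highest) in Etv2 +/Δ. Every Etv2 enhΔ/Δ yolk sac lay below every Etv2 +/Δ yolk sac, by −1.61 ± 0.24 (log2, SE; adjusted p = 0.000164). Gata1, the zinc finger factor that drives red cell differentiation, had 5.20, 3.02, 5.64, 5.02 and 2.39 CPM in Etv2 enhΔ/Δ, against 8.62, 17.3 and 23.2 CPM in Etv2 +/Δ (−1.69 ± 0.25, adjusted p = 0.000138). Klf1, the Krüppel-like factor that switches on globin, heme and membrane genes, had 12.7, 15.3, 17.6, 7.34 and 8.60 CPM in Etv2 enhΔ/Δ, against 42.9, 45 and 67.8 CPM in Etv2 +/Δ (−1.97 ± 0.23, adjusted p = 6.12e-06). In both genes the 2 groups did not overlap. Ikzf1, an Ikaros family zinc finger protein, had 29.8, 28.2, 29.7, 22.5 and 13.6 CPM against 69.3, 84.3 and 113 CPM in Etv2 +/Δ (−1.76 ± 0.25, adjusted p = 0.000108). Gfi1b, a repressor of the red cell and megakaryocyte lineages, and Nfe2, the large subunit of the NF-E2 factor, were also called (−1.49, adjusted p = 0.0251, and −1.27, adjusted p = 0.0499) and both overlapped between the groups. Lmo2, which bridges Tal1 and Gata1 in 1 complex, had 13.7, 14.4, 16.6, 9.66 and 14.7 CPM in Etv2 enhΔ/Δ, against 19.8, 38.1 and 45.5 CPM in Etv2 +/Δ, with a difference of −1.26 ± 0.56 that did not pass (adjusted p = 0.316). The general cofactor Ldb1 differed by −0.01. The calls of Tal1, Gata1, Klf1 and Ikzf1 stood in all 24 alternative fits. Gfi1b lost its call without Etv2 enhΔ/Δ replicate 1, 4 or 5 or Etv2 +/Δ replicate 2 or 3 (adjusted p up to 0.0937), and Nfe2 without any of 8 libraries (Etv2 enhΔ/Δ 1, 2, 4 or 5, Etv2 +/Δ 2 to 5; up to 0.149).

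**Figure D2:**
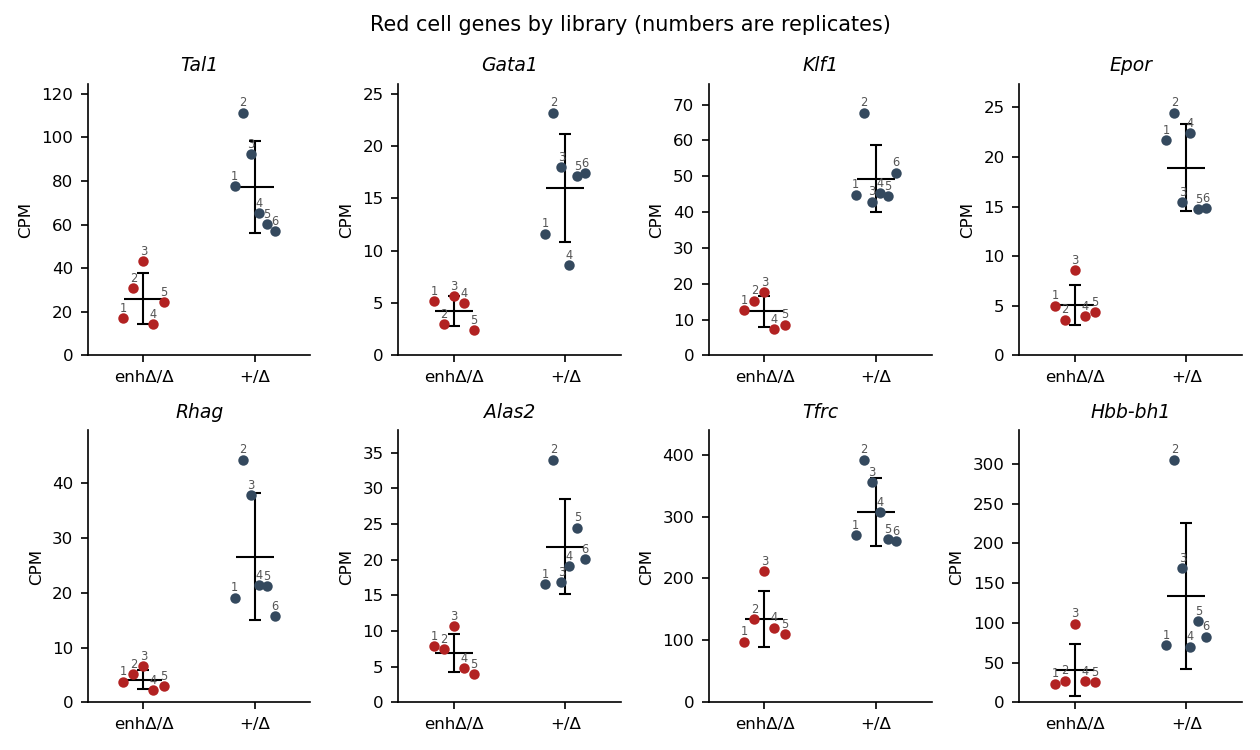
CPM of 8 red cell genes in each library, with Etv2 enhΔ/Δ (n = 5) left of Etv2 +/Δ (n = 6). Numbers are replicates and bars the mean ± SD. Tal1, Gata1, Klf1, Epor, Rhag, Alas2 and Tfrc do not overlap between the genotypes, and Hbb-bh1 does, through Etv2 enhΔ/Δ replicate 3 at 99.1 CPM.

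The promoters of the 3 genes with the smallest p values and an entry in the RefSeq table are given because GATA factors read the letters GATAA. Each runs from 250 bases before to 50 bases after the start of the gene on the sense strand (GRCm38.p6), and capitals mark GATAA or its reverse complement TTATC, searched on both strands. Klf1 (chr8:84901732-84902031) held 1 match, the amino acid transporter gene Slc38a5 (chrX:8271131-8271430) 0 and Cpox (chr16:58669958-58670257) 2. Of all 27018 promoters of this length, 25.8% held the motif, against 17.1% of the 12428 that belonged to a tested gene. A promoter was found for 124 of the 161 genes called lower, of which 32 (25.8%) held the motif. It was found for 51 of the 69 genes called higher, of which 8 (15.7%) held it. Genes without a promoter entry are missing from each share, and the differences between shares were not tested.
Klf1: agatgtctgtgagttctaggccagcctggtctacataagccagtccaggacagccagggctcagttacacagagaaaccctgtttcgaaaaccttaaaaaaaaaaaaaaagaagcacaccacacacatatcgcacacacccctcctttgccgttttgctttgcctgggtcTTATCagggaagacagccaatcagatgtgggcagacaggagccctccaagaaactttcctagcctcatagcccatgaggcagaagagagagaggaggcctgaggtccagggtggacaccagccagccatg
Slc38a5: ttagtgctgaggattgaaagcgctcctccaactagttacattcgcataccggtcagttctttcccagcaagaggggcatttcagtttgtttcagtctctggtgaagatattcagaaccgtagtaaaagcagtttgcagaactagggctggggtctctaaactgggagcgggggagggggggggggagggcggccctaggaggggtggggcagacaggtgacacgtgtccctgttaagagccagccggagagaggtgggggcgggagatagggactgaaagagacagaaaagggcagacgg
Cpox: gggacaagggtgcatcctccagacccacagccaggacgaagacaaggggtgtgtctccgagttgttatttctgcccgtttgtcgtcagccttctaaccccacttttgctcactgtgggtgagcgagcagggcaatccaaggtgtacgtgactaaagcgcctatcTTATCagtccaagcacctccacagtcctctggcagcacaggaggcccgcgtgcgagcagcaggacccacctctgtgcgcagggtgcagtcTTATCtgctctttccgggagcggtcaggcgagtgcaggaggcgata

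Of the 9 enzymes of heme synthesis, 6 were lower in Etv2 enhΔ/Δ and 0 higher (median −0.84). Alas2, the red cell form of the first enzyme, had 7.91, 7.49, 10.7, 4.76 and 4.01 CPM in Etv2 enhΔ/Δ, against 16.5, 19.6 and 34.0 CPM in Etv2 +/Δ (−1.55 ± 0.26, adjusted p = 0.000789). Its counterpart of other tissues, Alas1, differed by −0.01 (adjusted p = 0.996). Cpox, which oxidises coproporphyrinogen in the mitochondrion, had 136, 175, 207, 143 and 136 CPM in Etv2 enhΔ/Δ, against 291, 454 and 509 CPM in Etv2 +/Δ (−1.43 ± 0.17, adjusted p = 8.10e-06). Both genes separated the genotypes without overlap. The middle enzymes Uros and Urod fell by 0.88 and 0.83, and Fech, which puts iron into the ring, fell by 0.71. Ppox (−0.99, adjusted p = 0.0748) and Alad (−0.69, adjusted p = 0.324) did not pass. The number of enzymes called was 2 without Etv2 enhΔ/Δ replicate 4, where only Alas2 and Cpox were called. Fech also lost its call without Etv2 enhΔ/Δ 2 or Etv2 +/Δ 2 or 3 (adjusted p up to 0.0738), Uros without Etv2 enhΔ/Δ 1 or 2 or Etv2 +/Δ 1 or 2 (up to 0.0782), and Urod without Etv2 enhΔ/Δ 1 or 2 or Etv2 +/Δ 1, 2 or 3 (up to 0.13).

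Genes of iron and heme transport fell in part: 5 of 16 were lower, 0 were higher, and the median was −0.15. Tfrc, the transferrin receptor that brings iron into the cell, had 98.3, 134, 212, 121 and 110 CPM in Etv2 enhΔ/Δ, against 260, 288 and 392 CPM in Etv2 +/Δ (−1.24 ± 0.18, adjusted p = 0.00013). Slc25a37, the mitoferrin that carries iron into the red cell mitochondrion, had 99.1, 101, 165, 67.7 and 85.3 CPM in Etv2 enhΔ/Δ, against 247, 313 and 454 CPM in Etv2 +/Δ (−1.65 ± 0.28, adjusted p = 0.000744). Steap3, the ferrireductase of the endosome, had 6.10, 1.36, 8.72, 3.60 and 6.02 CPM against 12.5, 19.4 and 30.4 CPM in Etv2 +/Δ (−1.88 ± 0.37, adjusted p = 0.00421). Abcb10, a transporter of the inner mitochondrial membrane in heme synthesis, had 55.1 to 67.0 CPM against 99.5 to 124 CPM in Etv2 +/Δ (−0.88 ± 0.13, adjusted p = 0.000204). In these 4 genes the genotypes did not overlap. Tmem14c, a porphyrin importer of the mitochondrion, fell by 0.62 (adjusted p = 0.0233), a call lost without Etv2 enhΔ/Δ 1, 2 or 4 or Etv2 +/Δ 1 or 2 (up to 0.0968). The iron store gene Fth1, which all cells use, differed by −0.17 and was not called.

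Globins were lower in most Etv2 enhΔ/Δ yolk sacs but spread widely within both groups, and 2 of 10 were called. Hbb-bh1, an embryonic beta-like globin, had 23.8, 27.3, 99.1, 26.5 and 25.8 CPM in Etv2 enhΔ/Δ, against 70.2, 92.6 and 306 CPM in Etv2 +/Δ (−1.74 ± 0.37, adjusted p = 0.00956). Hba-x, the embryonic alpha-like globin zeta, had 85.0, 83.9, 284, 75.2 and 95.1 CPM in Etv2 enhΔ/Δ, against 247, 318 and 722 CPM in Etv2 +/Δ (−1.67 ± 0.43, adjusted p = 0.0422). Replicate 3 of Etv2 enhΔ/Δ alone reached the Etv2 +/Δ range in both. Hbb-y, the embryonic globin epsilon, was the most abundant of the 3 in CPM, with 352, 283, 1695, 307 and 227 CPM in Etv2 enhΔ/Δ and 431, 656 and 2441 CPM in Etv2 +/Δ, and its difference of −0.97 ± 0.62 did not pass (adjusted p = 0.568). The median of the 10 was −0.86. By an unadjusted p under 0.05, 5 were lower (background 6.25%) and 1 higher (background 6.4%): Hbb-bh0, a further beta-like globin gene, gave 2.00 (adjusted p = 0.257). Reads of the adult pairs Hba-a1 and Hba-a2, and Hbb-bs and Hbb-bt, which are nearly identical, may be split between the copies by the counting. Hbb-bh1 kept its call in 19 of the 24 alternative fits, with an adjusted p of up to 0.273 in the others. Hba-x lost its call without any 1 of 8 libraries (Etv2 enhΔ/Δ 1, 2, 4 or 5, Etv2 +/Δ 1, 2, 3 or 5, adjusted p up to 0.137). No globin was called when Etv2 +/Δ replicates 2 and 3 were both left out (median −0.42), when Etv2 enhΔ/Δ replicates 2 and 4 were (median −0.52) or with the mitochondrial share as a term (median −0.77).

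Of 18 red cell membrane and skeleton genes, 12 fell, 0 rose and the median was −1.43. Rhag, the Rhesus-associated glycoprotein, had 3.78, 5.16, 6.66, 2.19 and 2.98 CPM against 15.8, 21.3 and 44.3 CPM in Etv2 +/Δ (−2.41 ± 0.46, adjusted p = 0.00284). All Etv2 enhΔ/Δ libraries lay below all Etv2 +/Δ libraries. Ank1, the ankyrin that ties spectrin to the membrane, had 14, 20.3, 21.9, 15.1 and 19.3 CPM against 36.7, 63.2 and 80.1 CPM in Etv2 +/Δ (−1.66 ± 0.28, adjusted p = 0.000744), again without overlap. Xk, which pairs with the Kell protein, fell by 1.46 (adjusted p = 0.00013), Epb42, protein 4.2, by 1.55 (adjusted p = 0.00268) and Epb41, protein 4.1, by 0.62 (adjusted p = 0.000848). The beta chain of spectrin, Sptb, fell by 1.23, and Kel, Add2, Ermap and Gypc by 1.51, 1.5, 2.00 and 1.08. Slc4a1, the anion exchanger band 3, had 33.8, 49.3, 112, 27.8 and 48.3 CPM in Etv2 enhΔ/Δ and 93.0, 163 and 372 CPM in Etv2 +/Δ, and missed the threshold (−1.73 ± 0.46, adjusted p = 0.052). The calls of the list numbered 6 without Etv2 +/Δ replicate 2. That library, or 1 of several others in turn, ended the calls of Ermap (adjusted p up to 0.0609), Add2 (0.0695), Gypc (0.0787), Kel (0.0822) and Sptb (0.111), and no single library ended those of Rhag, Ank1, Xk, Epb42 and Epb41.

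Enzymes and maturation genes of the red cell followed with 7 of 16 lower and 0 higher (median −0.63). Epor, the erythropoietin receptor, had 5.03, 3.60, 8.57, 3.99 and 4.33 CPM in Etv2 enhΔ/Δ, against 14.8, 18.6 and 24.5 CPM in Etv2 +/Δ (−1.72 ± 0.26, adjusted p = 0.000164). Car2, carbonic anhydrase 2, had 135, 141, 227, 92.1 and 103 CPM against 340, 420 and 637 CPM in Etv2 +/Δ (−1.69 ± 0.20, adjusted p = 8.05e-06). Trim10, a tripartite motif protein of maturing red cells, had 2.20, 2.43, 6.23, 2.32 and 6.02 CPM against 12.2, 17.9 and 26.5 CPM in Etv2 +/Δ (−2.12 ± 0.28, adjusted p = 2.81e-05). None of the 3 overlapped between the genotypes. The list also held Nxpe2, at 0.487 to 2.65 CPM in Etv2 enhΔ/Δ and 8.0 to 31.4 CPM in Etv2 +/Δ (−2.93 ± 0.54, adjusted p = 0.00228), and the nuclear protein Hemgn (−1.93, adjusted p = 0.00956). Prdx2, the peroxiredoxin of red cells, and Blvrb, biliverdin reductase B, fell by 0.53 and 1.31. Car1 did not pass (−1.57, adjusted p = 0.068). Without Etv2 enhΔ/Δ replicate 4 the list had 4 calls and Hemgn lost its own (adjusted p = 0.0591). Blvrb lost it without Etv2 enhΔ/Δ 1, 4 or 5 or Etv2 +/Δ 2 or 5 (up to 0.0998), and Prdx2 without Etv2 enhΔ/Δ 1, 2, 4 or 5 or Etv2 +/Δ 1, 2 or 6 (up to 0.119).

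The yolk sacs of a genotype did not carry these genes evenly. Replicate 3 of Etv2 enhΔ/Δ was the highest of its 5 in 35 of the 38 red cell genes called, with a median deviation of 0.63 (log2) from the mean of its group. Among all 161 genes called lower it was the highest in 77. In Etv2 +/Δ, replicate 2 was the highest of 6 in 24 of the 38 (0.45). Even so, 31 of the 85 red cell genes measured had all 5 Etv2 enhΔ/Δ values below all 6 Etv2 +/Δ values, and 0 lay the other way, where the shares over all genes were 1.8% and 1.41% (3.21% for either direction).

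Several leading falls were genes outside the red cell lists. Slc38a5, a glutamine transporter, had 2.54, 3.31, 3.30, 1.29 and 2.39 CPM in Etv2 enhΔ/Δ, against 10.1, 12.9 and 19.8 CPM in Etv2 +/Δ (−2.07 ± 0.24, adjusted p = 7.24e-06), and Slc43a1, a leucine transporter, had 19.4 to 30.8 CPM against 43.3 to 77.5 CPM (−1.41 ± 0.19, adjusted p = 5.19e-05). Tmem56, a transmembrane protein gene, had 28, 32.0, 56.8, 18.3 and 16.5 CPM against 74.5, 134 and 191 CPM in Etv2 +/Δ (−2.18 ± 0.30, adjusted p = 5.19e-05). Both transporters and Tmem56 separated the genotypes. Ell2, an elongation factor of RNA polymerase II, had 46.5, 47.3, 109, 42.7 and 43.2 CPM against 156, 182 and 342 CPM in Etv2 +/Δ (−1.88 ± 0.25, adjusted p = 4.77e-05). Cited4, a partner of the coactivators CBP and p300, had 7.21 to 13.3 CPM against 23.8 to 39.7 CPM (−1.67 ± 0.21, adjusted p = 2.01e-05), and Cecr2, a chromatin remodelling protein, 12.1 to 18 CPM against 34.5 to 51.0 CPM (−1.31 ± 0.20, adjusted p = 0.000178). Foxh1, which carries Nodal signals with Smad proteins, had 1.64, 3.50, 0.879, 0.772 and 2.07 CPM against 4.28, 8.75 and 10.5 CPM in Etv2 +/Δ (−1.80 ± 0.32, adjusted p = 0.00121). Gabra4, a GABA receptor subunit, had 1.03 to 2.93 CPM against 8.07 to 15.5 CPM (−2.13 ± 0.35, adjusted p = 0.000582), and Ccrl2, a chemokine binding receptor, 0.386 to 0.973 CPM against 2.83 to 13.1 CPM (−1.97 ± 0.32, adjusted p = 0.000574). Hipk2, a nuclear kinase, and Spire1, an actin nucleator, both fell by 0.89 with no overlap (177, 188, 204, 185 and 169 CPM of Hipk2 in Etv2 enhΔ/Δ, against 306, 333 and 419 CPM in Etv2 +/Δ). All of these kept their call in each of the 24 alternative fits, as did 38 lower and 3 higher genes in all.

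The sources and sisters of the red cell lineage gave no call in the fit of all libraries. Of 20 genes of hemogenic endothelium and blood progenitors, 17 of megakaryocytes and 15 of macrophages and other myeloid cells, 0 were lower and 0 higher (medians −0.16, −0.11 and −0.01), and 34 of the 50 distinct genes were below 0. Of these lists 16, 9 and 4 genes averaged at least 1 on the log2 scale, with medians of 2209, 226 and 53 reads per gene over the 11 libraries. Many megakaryocyte and most myeloid genes were so near the floor that they could hardly be called. Most progenitor genes were not near it. In each list the lack of calls does not show that these lineages were alike. Of the progenitor genes, 2 were called lower without Etv2 Δ/Δ replicate 5, without any Δ/Δ library, without genes averaging under 1 on the log2 scale, by voom on recovered reads and with the 2 genotypes alone and no sex term, and 1 without Etv2 +/Δ replicate 5 or with the 2 genotypes alone. Runx1, needed for the definitive blood stem cells of the mouse, had 39.4, 55.2, 38.4, 40.3 and 31.2 CPM in Etv2 enhΔ/Δ and 45.1, 53.7 and 69.7 CPM in Etv2 +/Δ. The groups overlapped, and the interval of the difference was −0.80 to −0.08 (−0.44, adjusted p = 0.258). Kit, the receptor of stem cell factor, gave −0.47 (95% interval −1.10 to 0.15; adjusted p = 0.573). Myc (52.3 to 80.3 CPM against 85.9 to 135 CPM; −0.65, adjusted p = 0.0642), the adhesion receptor gene Adgrg1 (−0.89, adjusted p = 0.0692) and Itga2b, the platelet integrin CD41 (−0.63, adjusted p = 0.395), had no overlap between the genotypes without passing the test.

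Endothelial genes outside the red cell lists were not called lower in Etv2 enhΔ/Δ in the fit of all libraries. Leaving out Tal1 and Lmo2, members of the red cell lists, 71 measured genes of the endothelial lists gave 0 lower and 0 higher calls, a median of 0.22 and 16 values below 0. Among 27 endothelial transcription factors (median 0.05), Tal1 was the single call, and Lmo2 did not overlap between the genotypes without passing (adjusted p = 0.316). In that list 2 genes were called lower without Etv2 Δ/Δ replicate 5, without any Δ/Δ library, and with the 2 genotypes alone, with or without a sex term. Kdr, the VEGF receptor 2, had 145, 146, 149, 130 and 154 CPM in Etv2 enhΔ/Δ, against 96.0, 126 and 196 CPM in Etv2 +/Δ, a difference of 0.22 (95% interval −0.09 to 0.52; adjusted p = 0.598). Cdh5, the cadherin of endothelial junctions, had 127, 118, 131, 138 and 119 CPM against 75.5, 82.8 and 121 CPM in Etv2 +/Δ (0.50, −0.06 to 1.05; adjusted p = 0.474). Pecam1, an adhesion molecule of the same junctions, had 27.7 to 39.9 CPM against 17.3 to 48.2 CPM (0.10, −0.40 to 0.60), and Tek, the angiopoietin receptor, 148 to 193 CPM against 100 to 171 CPM (0.24, −0.07 to 0.56). The 2 genotypes overlapped in all 4. Of the 37 receptors, junction and surface proteins, 31 were above 0 (median 0.32), and their summed level was 2192.5 to 2487 CPM in Etv2 enhΔ/Δ and 1862 to 2124 CPM in Etv2 +/Δ. Eng, a TGF-beta coreceptor (16.9 to 29.7 CPM against 10.6 to 16.8 CPM; 0.64, adjusted p = 0.331), and the hyaluronan receptor Lyve1 (314 to 412 CPM against 216 to 308 CPM; 0.39, adjusted p = 0.395) had no overlap and did not pass. The Ets factors of endothelium gave 0.17 for Fli1 (−0.21 to 0.55), 0.28 for Ets1 (−0.01 to 0.58) and −0.04 for Erg (−0.58 to 0.51). Among 18 arterial and venous genes the median was 0.20, with −0.14 for Sox17 (−0.90 to 0.62) and 0.01 for Nr2f2 (−0.39 to 0.42). The whole Ets family, 23 genes, had 0 calls. The intervals bound the size of a fall: 61 of these genes averaged at least 2 on the log2 scale, of which 59 had a 95% interval wholly above −1, and the lowest bound among the 61 was −1.25. Intervals were wider in the less abundant genes, such as −1.85 to 0.27 for the transcription factor gene Dach1. A miss of the threshold does not show that the genotypes are alike.

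**Figure D3:**
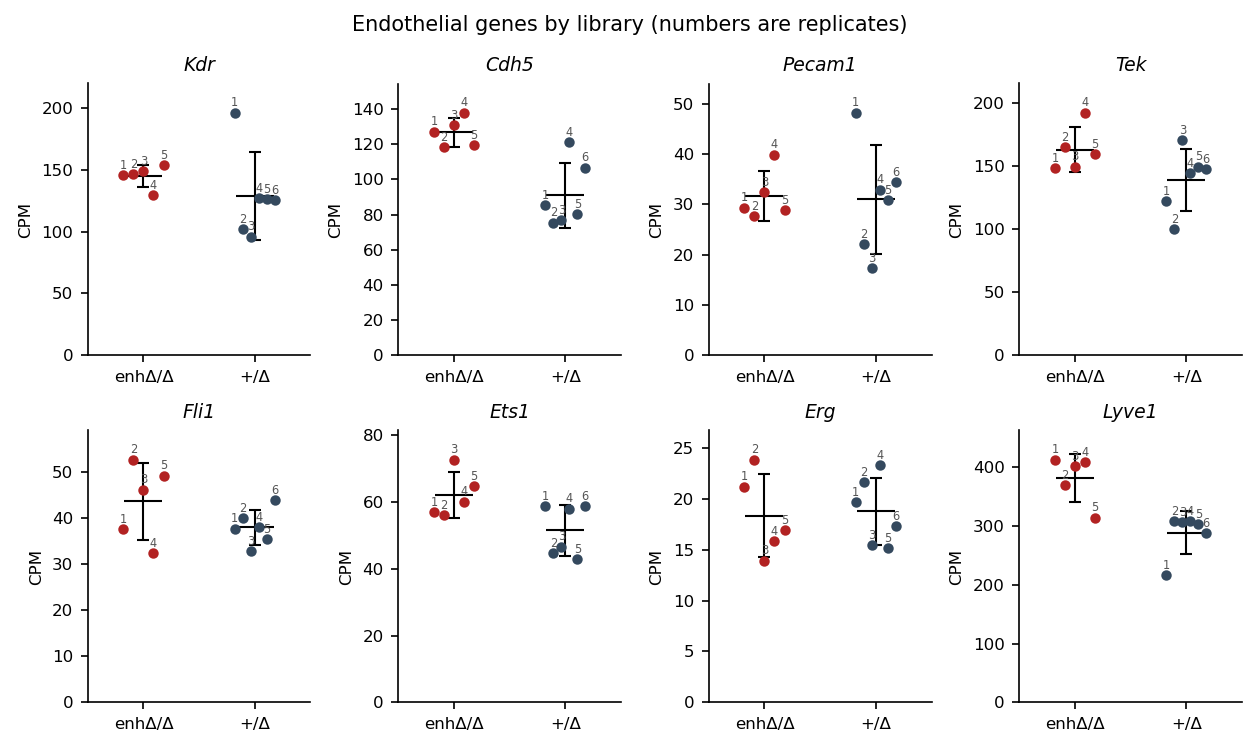
CPM of 8 endothelial genes in each library, with Etv2 enhΔ/Δ (n = 5) left of Etv2 +/Δ (n = 6), drawn as for the red cell genes. Kdr, Cdh5, Pecam1, Tek, Fli1, Ets1 and Erg overlap between the genotypes, and the 5 Etv2 enhΔ/Δ values of Lyve1 (314 to 412 CPM) lie above those of Etv2 +/Δ (216 to 308 CPM).

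Of 28 extracellular matrix genes, 9 rose, 0 fell and the median was 0.73. Col3a1, the chain of type III collagen, had 169, 141, 180, 250 and 70.9 CPM in Etv2 enhΔ/Δ, against 18.3, 35.2 and 57.4 CPM in Etv2 +/Δ (1.99 ± 0.31, adjusted p = 0.000231). Col1a1 and Col1a2, the chains of type I collagen, had 150 to 416 CPM and 107 to 261 CPM in Etv2 enhΔ/Δ, against 52.6 to 148 CPM and 50.4 to 93.4 CPM in Etv2 +/Δ (1.69, adjusted p = 0.0296, and 1.5, adjusted p = 0.00623). Postn, the matricellular protein periostin, had 275, 407, 269, 356 and 196 CPM against 52.1, 99.2 and 143 CPM in Etv2 +/Δ (1.61 ± 0.32, adjusted p = 0.00586). All 5 Etv2 enhΔ/Δ values of these 4 genes lay above all 6 Etv2 +/Δ values, and replicate 5 was the lowest of the 5 in each. Col5a2 rose by 1.19 (adjusted p = 0.00285), Sparc, a collagen binding protein, by 1.01 (adjusted p = 0.0216) and Fn1, fibronectin, by 0.66 (adjusted p = 0.043), and Col6a2 and Spon1 by 1.37 and 1.24. The number called was 4 without Etv2 enhΔ/Δ replicate 1 or 4 or Etv2 +/Δ replicate 3. These, or another library in turn, ended the calls of Sparc (adjusted p up to 0.0896), Col1a1 (0.0974), Spon1 (0.111), Col6a2 (0.12) and Fn1 (0.158). Without Etv2 +/Δ replicates 2 and 3 the list had 1 call and a median of 0.64, and with the mitochondrial share as a term 2 calls and 0.53.

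**Figure D4:**
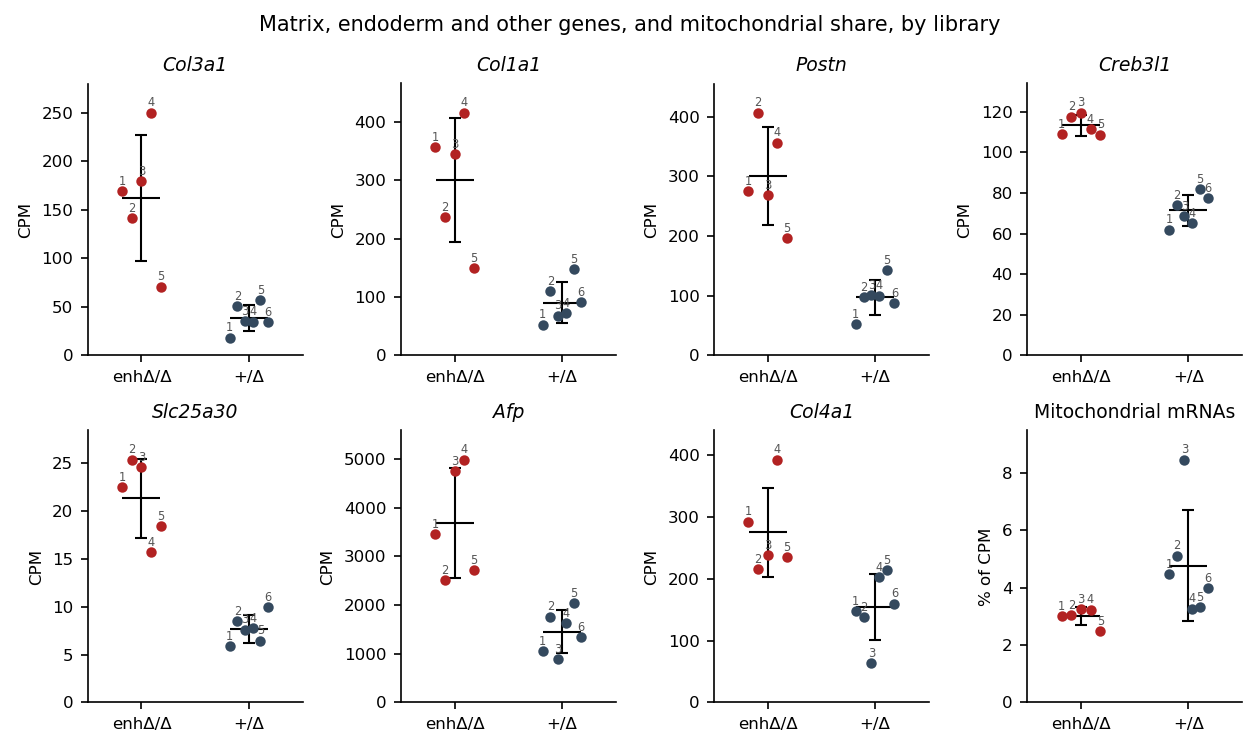
CPM of 7 genes that were higher or near the threshold, and the share of mitochondrial messenger RNA in percent, in each library, with Etv2 enhΔ/Δ (n = 5) left of Etv2 +/Δ (n = 6). Numbers are replicates and bars the mean ± SD. Col3a1 (70.9 to 250 CPM against 18.3 to 57.4 CPM) and Creb3l1 do not overlap, and Etv2 +/Δ replicate 3 has the highest mitochondrial share at 8.46%.

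Basement membrane genes and the genes of neighbouring tissue layers gave few calls. All 12 basement membrane genes were above 0 (median 0.54) and 10 passed an unadjusted p under 0.05 (background 6.4%), but 0 passed over all genes (5 without Etv2 Δ/Δ replicate 5, 4 without Etv2 +/Δ replicate 5, 3 without Etv2 +/Δ replicate 4 and 3 when genes averaging under 1 on the log2 scale were left out): Col4a1 had 293, 216, 239, 393 and 235 CPM in Etv2 enhΔ/Δ, against 63.9, 154 and 214 CPM in Etv2 +/Δ (0.89, adjusted p = 0.0694), and Nid1, the nidogen that links laminin to collagen IV, 146 to 176 CPM against 89.4 to 138 CPM (0.43, adjusted p = 0.052). Neither overlapped. Extraembryonic mesoderm and mesothelium (21 genes, median 0.18) and smooth muscle (16 genes, 0.14) had 0 calls in the fit of all libraries. At an unadjusted p under 0.05, 7 and 3 of them were higher and 0 lower. Of 7 parietal endoderm genes only Plat, tissue plasminogen activator, was called (1.58, adjusted p = 0.0499, a call lost without any of the 11 libraries but Etv2 +/Δ replicate 5, up to 0.151).

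In visceral endoderm, the outer layer of the yolk sac, 1 of 30 genes was higher and 0 lower (median 0.18). That gene was Afp, alpha-fetoprotein, with 3454, 2518, 4747, 4991 and 2722 CPM in Etv2 enhΔ/Δ, against 895, 1484 and 2048 CPM in Etv2 +/Δ (1.35 ± 0.33, adjusted p = 0.0329). The groups did not overlap, but the call ended without Etv2 enhΔ/Δ 1, 3 or 4 or Etv2 +/Δ 1, 3 or 6 (adjusted p up to 0.127). Apoe (281 to 465 CPM against 54.9 to 297 CPM; 1.17, adjusted p = 0.0721), the retinol carrier Rbp4 (1420 to 1982 CPM against 916 to 1373 CPM; 0.51, adjusted p = 0.0683) and transferrin, Trf (21.4 to 45.1 CPM against 3.00 to 19.4 CPM; 1.54, adjusted p = 0.134), did not pass. Apob gave 0.13. The 30 genes summed to 48580–61723 CPM in Etv2 enhΔ/Δ and 41910–56226 CPM in Etv2 +/Δ, ranges that overlapped.

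Outside the lists, 58 genes were higher. Creb3l1, a membrane-bound transcription factor that drives collagen genes in bone-forming cells of the mouse, had 109, 118, 120, 111 and 109 CPM in Etv2 enhΔ/Δ, against 62.0, 71.3 and 82.0 CPM in Etv2 +/Δ (0.66 ± 0.11, adjusted p = 0.00103). With Col3a1 and Slc25a30 it was 1 of the 3 rises called in all 24 alternative fits. Parva, an actin binding protein of focal adhesions, had 102 to 131 CPM against 58.5 to 79.6 CPM (0.71, adjusted p = 0.00211), and Dlc1, a GTPase-activating protein, 77.7 to 102 CPM against 45.6 to 73.8 CPM (0.64, adjusted p = 0.00285). Both separated the genotypes. Cdkn1c, the cell cycle inhibitor p57, had 274, 348, 426, 354 and 320 CPM against 132, 156 and 173 CPM in Etv2 +/Δ (1.14 ± 0.23, adjusted p = 0.00651). Fcgrt, the neonatal Fc receptor, had 17.1 to 31.8 CPM against 3.23 to 12.9 CPM (1.55, adjusted p = 0.0056), and Ngfr, the low-affinity neurotrophin receptor, 5.93 to 12 CPM against 0.248 to 4.16 CPM (2.18, adjusted p = 0.0142). Further rises were Dnm3 (1.47, adjusted p = 0.023), Parm1 (1.22, adjusted p = 0.0248), Gpx3 (1.07, adjusted p = 0.022) and Arpc1b (0.75, adjusted p = 0.0214). Each of these 4 lost its call without any 1 of several libraries (up to 0.0927, 0.0898, 0.103 and 0.0831 in that order).

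For 2 of the rises Etv2 +/Δ had the lowest mean of the 6 genotypes, an order that was not tested across the 6. Slc25a30, a mitochondrial carrier, had 22.5, 25.4, 24.6, 15.7 and 18.4 CPM in Etv2 enhΔ/Δ, against 5.93, 7.68 and 10.0 CPM in Etv2 +/Δ (1.36 ± 0.24, adjusted p = 0.00121). It averaged 27.3 ± 10.1 CPM in Etv2 enhΔ/enhΔ, 25.7 ± 7.16 in +/enhΔ, 20.2 ± 6.61 in Δ/Δ and 19.3 ± 5.42 in +/+. Plbd1, a phospholipase B-like protein, had 84.0 to 156 CPM in Etv2 enhΔ/Δ, against 21.6 to 74.4 CPM in Etv2 +/Δ (1.24, adjusted p = 0.0145, a call lost without Etv2 enhΔ/Δ 4 or Etv2 +/Δ 2, up to 0.0718). It averaged 105 ± 16.2 CPM in Etv2 enhΔ/enhΔ, 103 ± 19.1 in +/enhΔ, 95 ± 28.8 in Δ/Δ and 91.6 ± 33.2 in +/+.

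The other lists gave few or no calls. Of 26 neighbours of Etv2 on chromosome 7, which travel with its alleles in a mixed background, 0 were called, with a median of 0.14 and 21 above 0. In other fits, 2 were called higher without Etv2 Δ/Δ replicate 5 and with the 2 genotypes alone, with or without a sex term. With quantile scaling, voom, the filter on a mean log2 of at least 1, or without Etv2 +/Δ replicate 4 or any Δ/Δ library, 1 was. The calpain subunit gene Capns1 (197 to 227 CPM against 144 to 196 CPM; 0.39, adjusted p = 0.0575) and Clip3 (1.10, adjusted p = 0.14) did not overlap between the genotypes. Among 22 proliferation genes 0 were called, 19 were below 0 and the median was −0.20, with −0.29 for the replication helicase subunit Mcm4 (adjusted p = 0.112). Of 20 hypoxia genes 1 was lower, Pdk1, which holds back pyruvate dehydrogenase (−0.58, adjusted p = 0.0407, a call lost without Etv2 enhΔ/Δ 1, 3, 4 or 5 or any Etv2 +/Δ library but replicate 2, up to 0.12). The 7 mitochondrial messenger RNAs in the table were all below 0 (median −0.65), with −0.82 for mt-Co1 (adjusted p = 0.0907). Heart muscle (17 genes), trophoblast (11), p53 response (13), interferon response (11), neural ectoderm (4), paraxial mesoderm (3) and decidua (3) had 0 calls. Their summed levels overlapped, with heart markers at 132–246 CPM in Etv2 enhΔ/Δ and 135–348 CPM in Etv2 +/Δ.

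The study sorted genes by how they follow Etv2 dose, and those lists were chosen on these samples, so their direction is not independent. Of 204 genes listed as sensitive to dose, 72 were lower in Etv2 enhΔ/Δ than in Etv2 +/Δ and 0 higher (median −0.92), with 48 to 81 lower when 1 library was left out. Of 434 genes listed as insensitive, 24 were lower (background 0.871%) and 1 higher (0.373%), with a median of −0.09, and 13 to 35 were lower and 0 to 2 higher when 1 library was left out.

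The same allele exchange, enhΔ in place of the wild type, was then read opposite the 3 possible partners. Opposite Δ it is the comparison above. Opposite enhΔ it sets Etv2 enhΔ/enhΔ against +/enhΔ, where 1 gene was lower (0.00541%) and 0 higher, with 1258 (6.81%) at an unadjusted p under 0.05. Opposite the wild-type allele it sets Etv2 +/enhΔ against +/+, where 0 were lower and 0 higher by limma, with 821 (4.44%) at an unadjusted p under 0.05. The 161 genes lower opposite Δ had a median of −0.88 there, of −0.17 opposite enhΔ (118 below 0) and of −0.04 opposite the wild-type allele (91 below 0). The 69 higher genes had medians of 0.80, −0.22 and 0.04, so that 51 of them were below 0 opposite enhΔ. The genes were chosen on the first of these values.

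The change of the effect with the partner was tested itself, between comparisons that share no library. Against the wild-type partner, 10 genes fell more opposite Δ (0.0541%) and 0 rose more, with 1383 (7.48%) at an unadjusted p under 0.05. They included Spire1 (difference of effects −1.25, adjusted p = 0.00482), Slc38a5 (−2.24, 0.00513), Klf1 (−2.01, 0.00573), Hipk2 (−1.12, 0.0103), Cited4 (−1.72, 0.0146), Cecr2 (−1.59, 0.0159), Tmem56 (−2.34, 0.0193), Slc43a1 (−1.43, 0.0395) and Ccrl2 (−2.34, 0.0474). Opposite the wild-type allele Klf1 differed by 0.04 (95% interval −0.46 to 0.54) and Slc38a5 by 0.17 (−0.37 to 0.71). Tal1 and Gata1, at −1.57 and −1.38, did not pass (adjusted p = 0.0863 and 0.218). Spire1, Slc38a5 and Klf1 kept the call without any 1 library of the 4 genotypes in turn. Without Etv2 +/enhΔ replicate 1 the calls numbered 4, and 6 of the genes had an adjusted p of 0.0619 (Hipk2), 0.0881 (Cited4 and Cecr2), 0.1 (Tmem56) and 0.174 (Slc43a1 and Ccrl2). Cited4 also lost the call without Etv2 enhΔ/Δ replicate 4, Cecr2 without Etv2 enhΔ/Δ replicate 2, Tmem56 without Etv2 enhΔ/Δ replicate 4 or 5, +/Δ replicate 1 or +/+ replicate 2, and Slc43a1 and Ccrl2 in most such fits. Reads of Ftl2-ps divided the libraries: every Etv2 enhΔ/Δ, +/Δ, enhΔ/enhΔ and Δ/Δ library had at most 0.515 CPM, whereas all but replicate 1 of Etv2 +/enhΔ and of +/+ had 36.5 to 50.2 CPM. The split runs with the comparison of Etv2 enhΔ/enhΔ and +/enhΔ as well, and its part in the differences between partners was not tested.

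Against the enhΔ partner, 2 genes fell more opposite Δ (0.0108%), Slc38a5 among them (−1.96, adjusted p = 0.034), and Creb3l1 (1.07, adjusted p = 0.0109), Col3a1 (2.66, adjusted p = 0.0191) and Parva (1.04, adjusted p = 0.034) rose more (0.0162%), with 2159 (11.7%) at an unadjusted p under 0.05. Col3a1, higher opposite Δ, differed by −0.66 (95% interval −1.37 to 0.04) opposite enhΔ and by 0.33 (−0.35 to 1.02) opposite the wild-type allele. Hipk2 was the gene lower opposite enhΔ (−0.90, adjusted p = 0.0234). Its effects opposite Δ and enhΔ differed by 0.01 (95% interval −0.41 to 0.42). The calls against the enhΔ partner leaned on single libraries, and without Etv2 +/enhΔ replicate 3 they numbered 0. Creb3l1 lost its call in that fit alone (adjusted p = 0.0878). Col3a1 also lost it without Etv2 enhΔ/Δ 1, +/Δ 3, +/enhΔ 4 or enhΔ/enhΔ 1 (up to 0.0878). Slc38a5 and Parva lost it in 9 and 12 of 21 such fits (up to 0.106 and 0.127), and with the mitochondrial share as a term 0 genes were called. Etv2 enhΔ/enhΔ was set against +/enhΔ in the fit of all libraries only, so whether the call of Hipk2 there leans on single libraries was not tested.

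**Figure D5:**
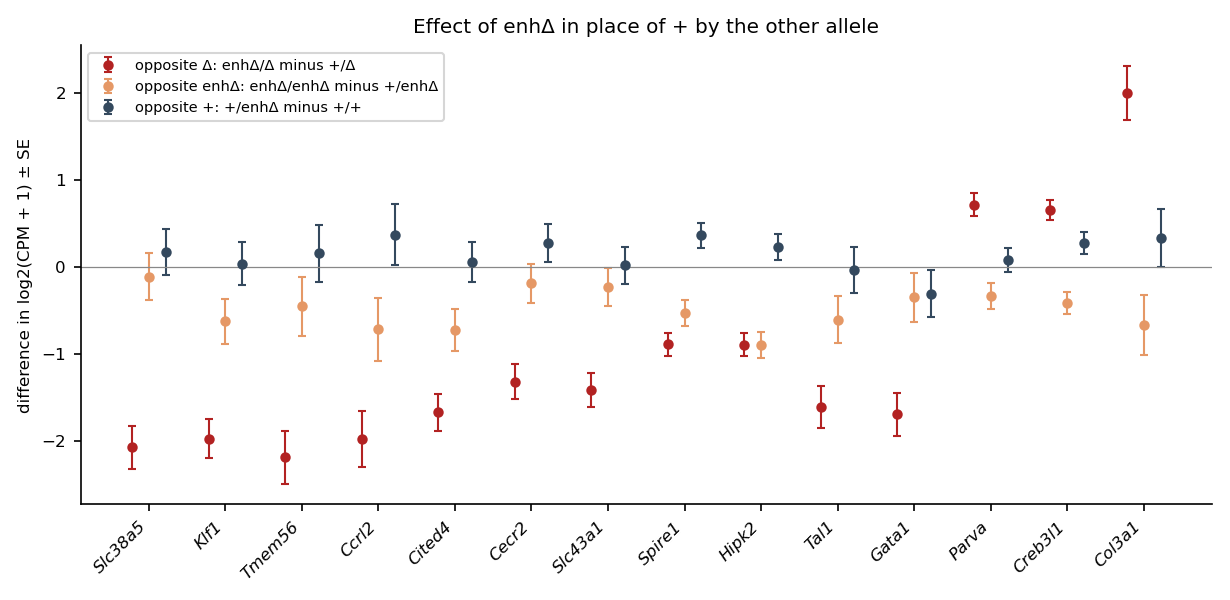
Effect of enhΔ in place of the wild-type allele on 14 genes, as log2(CPM + 1) difference ± SE, opposite Δ (Etv2 enhΔ/Δ minus +/Δ), opposite enhΔ (enhΔ/enhΔ minus +/enhΔ) and opposite the wild-type allele (+/enhΔ minus +/+). Slc38a5 falls by 2.07 opposite Δ and is at −0.11 opposite enhΔ and 0.17 opposite the wild-type allele, and Hipk2 is at −0.89 opposite Δ and −0.90 opposite enhΔ.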

How the data were processed

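Single yolk sacs were sequenced from total RNA after amplification. The authors trimmed reads with fastq-mcf, checked them with FastQC, aligned them to mm9 with STAR 2.5.2a, counted reads per Ensembl gene with featureCounts, and deposited log2(CPM + 1) values scaled by edgeR normalization factors. Whether counting used strand is not given in the sources used here. The authors' own fold changes (log2), score and p values are also in the deposited tables and were not used. The authors' model held a batch that the labels do not give, so batch and genotype cannot be told apart here.

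The deposited log2 values of 18477 genes in 31 libraries were fitted with limma 3.58.1 (R 4.3.3; genotype and labelled sex, trended moderated variances, 24 residual degrees of freedom), with p values adjusted over all genes (Benjamini-Hochberg) and a threshold of 0.05. Fold changes are differences of log2(CPM + 1), which understate the change of low genes. Whole reads were recovered from the values (100% within 0.01 reads) and used for voom as an alternative. Of 872 genes without a symbol and 22 whose symbol had become a date, 883 were named from the annotation. Other values were computed with Python 3.11.15, pandas 2.3.3, numpy 2.4.6 and scipy 1.17.1, and the fit was tested on simulated data. Alternatives changed the scaling, pseudocount, filter, threshold, terms and libraries of the fit.

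The members and gene lists were chosen with earlier results of these data known. Genes named were those the study names, the 15 largest falls and 15 largest rises (called, mean log2 of at least 2, no overlap), up to 4 members of each list and up to 10 genes of each test of a difference. Of 194 genes kept for the text, 29 were added after their values were seen, and some members of the lists are counted but not reported here by name. Enhancer primers came from the study's primer list and were placed on mm9.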

Additional observations from a re-analysis of the deposited data

Results flagged for a closer look

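Of 126 groups of 5 or 6 values examined, 17 held a value far from the rest of its group by Dixon's test, which chance gives in about 1 in 20. Replicate 3 of Etv2 enhΔ/Δ accounted for most of those in that genotype: Hbb-bh1 at 99.1 CPM (next value 27.3), Hba-x at 284 CPM (95.1), Hbb-y at 1695 CPM (352), Epor at 8.57 CPM (5.03), Ell2 at 109 CPM (47.3) and all globins at 0.225% of reads (0.0521%). Col1a2 was low in Etv2 enhΔ/Δ replicate 5, at 107 CPM (221). In Etv2 +/Δ the outlying values were Hba-x at 722 CPM (385), Hbb-y at 2441 CPM (1040), globins at 0.336% of reads (0.167%), Klf1 at 67.8 CPM (51.0), Cecr2 at 51.0 CPM (36.9), Kdr at 196 CPM (127), Ngfr at 4.16 CPM (1.29), Etv2 at 3.59 CPM (1.55), the mitochondrial share at 8.46% (5.11%) and, on the low side, Lyve1 at 216 CPM (288).

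In the fit of all libraries, the effect of enhΔ in place of the wild-type allele was called different between partner alleles in the genes that follow. Most of these calls leaned on single libraries, as given above, and the part of the Ftl2-ps split in them was not tested. The effect opposite Δ minus that opposite the wild-type allele was −1.25 for Spire1, −2.24 for Slc38a5, −2.01 for Klf1, −1.12 for Hipk2, −1.72 for Cited4, −1.59 for Cecr2, −2.34 for Tmem56, −1.43 for Slc43a1 and −2.34 for Ccrl2. Set against the effect opposite enhΔ, the differences were 1.07 for Creb3l1, 2.66 for Col3a1, 1.04 for Parva and −1.96 for Slc38a5.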

How the results depend on the processing

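Against 161 genes lower and 69 higher in Etv2 enhΔ/Δ, leaving out 1 library gave 79 to 265 lower and 22 to 165 higher, the highest of both without Δ/Δ replicate 5. Counts lower and higher were 43 and 5 without Etv2 +/Δ replicates 2 and 3, 82 and 11 with the mitochondrial share as a term, 67 and 15 at an adjusted p under 0.01, and 68 and 28 at a fold of at least 2. With a mean log2 of at least 1 they were 230 and 125, and after quantile scaling 161 and 98 (62.2% of calls lower, against 70%). Chosen after seeing the data, leaving out all Δ/Δ libraries gave 255 and 147, leaving out Etv2 enhΔ/Δ replicates 2 and 4 gave 43 and 7, and the 2 genotypes alone without sex gave 184 and 96. The 10 and 5 genes whose effect depended on the wild-type and enhΔ partner became 23 and 28 with the filter, 29 and 3 with voom, 41 and 1 with the 4 genotypes alone, 33 and 98 without Δ/Δ, 1 and 0 without Etv2 enhΔ/Δ replicates 2 and 4, and 4 and 0 at 0.01. The 5 became 0 without Etv2 +/Δ replicates 2 and 3 or with the mitochondrial term, and 2 with a pseudocount of 0.25. Leaving out 1 library gave 4 to 28 and 0 to 137, where those of +/enhΔ, enhΔ/enhΔ and +/+ were added after seeing the data. The mitochondrial difference of −1.76 percentage points was −4.80 with ribosomal RNAs (exact permutation p = 0.195). Replicate numbers were shared only by name (correlations of −0.07 to 0.05), and a replicate block gave 127 lower, 50 higher and, for the enhΔ partner, 10. Of 4632 values of named genes under these settings, 4214 kept their side of the threshold, 333 lost the call and 85 gained it. Among values called in the main or the alternative fit, 0 turned direction. Turns of direction among values called in neither were not counted. Of 75 called named genes, 30 were called in every fit. Tests of edgeR and DESeq2 were not run on the recovered reads, for which voom was the only alternative used.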
